A study of Mus musculus with 2 samples.

Results

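The expression of 9 genes that start, restrain or localise blood coagulation and plasminogen activation was compared between mouse embryonic fibroblasts (MEFs) labelled *Lats2* knockout (KO) and wild-type (WT). The genes were F3, Tfpi, Tfpi2, Thbd, Procr, Plat, Plau, Plaur and Serpine2, taken by name from the array files, and they made up 9 of the 19550 named genes with a value on both arrays. They were covered by 18 probes. Both RNAs came from embryonic fibroblasts of C57BL/6J mice that had received no treatment, and the labels write the genotypes as LATS2-/- and LATS2+/+ in the titles and as LAT2-/- and LAT2+/+ in the genotype field. LATS2 is a kinase of the Hippo pathway, which restrains the transcriptional co-activators YAP and TAZ. On each of 2 whole mouse genome oligonucleotide arrays, a KO RNA and a WT RNA were hybridised together. The first array had the KO RNA in the red dye Cy5 and the WT RNA in the green dye Cy3, and the second had the dyes exchanged. How many embryos or cultures each RNA came from is not given in the sources used here. Whether both arrays carried the same RNA preparations is not given either, so the arrays were counted as 1 technical dye swap of 1 replicate per genotype. No difference below therefore has a replicate check or a p-value. The arrays give the error of hybridisation and dye, which for a single array and probe was an SD of 0.133 on the log2 scale.

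The probes of the targeted gene did not bear out the labels. The 4 Lats2 probes had mean log2 ratios of KO over WT of 0.56, 0.56, 0.63 and -0.35, so that 3 of the 4, all within chr14:56644080-56645305, were higher in the KO-labelled RNA, while the fourth, at chr14:56676512-56676571, was lower on both arrays (-0.18 and -0.51). Which part of the gene was deleted is not given in the sources used here, and whether the probes lie inside it was not tested. The groups are accordingly named KO-labelled and WT-labelled RNA, and every direction rests on those labels.

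Tissue factor, the product of F3, is a membrane receptor that binds factor VII and starts the extrinsic pathway of coagulation. Tissue factor pathway inhibitor (Tfpi) blocks the complex, and thrombomodulin (Thbd) and the endothelial protein C receptor (Procr) turn thrombin towards activation of the anticoagulant protein C. On the fibrinolytic side, tissue-type (Plat) and urokinase-type (Plau) plasminogen activators convert plasminogen into plasmin, the urokinase receptor (Plaur) holds Plau at the cell surface, and protease nexin 1 (Serpine2) inhibits thrombin and both activators. Fibroblasts outside the vessel wall carry tissue factor, and the plasminogen activators are used by such cells in matrix remodelling and migration.

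Tfpi and F3 were higher and Plat was lower in the KO-labelled RNA. By the probe with the highest mean intensity, which stood for each gene, Tfpi was 14.3-fold and F3 5.98-fold higher, and the level of Plat was 27.1% of that in the WT-labelled RNA. Procr lay 1.91-fold higher but passed the 2-fold threshold on only 1 array. Plau and Plaur, at 1.41-fold and 1.07-fold, did not pass it on either array. Thbd and Tfpi2 were undetected in both RNAs, and Serpine2 was detected in the KO-labelled RNA alone, close to the detection limit.

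To be called, a gene needed a log2 ratio of 1 or more in size, of the same sign, on each array, and the scanner software had to flag its probe as well above background on both arrays in the RNA with the higher level. Of the 9 genes, 7 were flagged in this way in 1 or both RNAs (detected), and 3 of these 7 (42.9%) were called. Among all 12777 genes detected in the same way, 794 were called, a background of 6.21%. By direction, 2 of the 7 were called higher against a background of 3.37%, and 1 of the 7 was called lower against a background of 2.84%. Over all genes measured, detected or not, the backgrounds were 4.06% in all, 2.2% higher and 1.86% lower, beside 3, 2 and 1 of the 9. At the level of probes, 8 of 14 detected ones were called, with 6 up and 2 down, beside backgrounds of 4.56%, 2.48% and 2.08% over all detected probes. The median log2 ratio was 0.50 over the 7 detected genes and 0.00 over all detected genes, and the median absolute log2 ratio was 0.93 against 0.25. These shares describe a set proposed with earlier results of the same arrays in view. In RNA from bulk cultures, fewer cells of a type and less RNA per cell cannot be told apart.

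**Figure D1:**
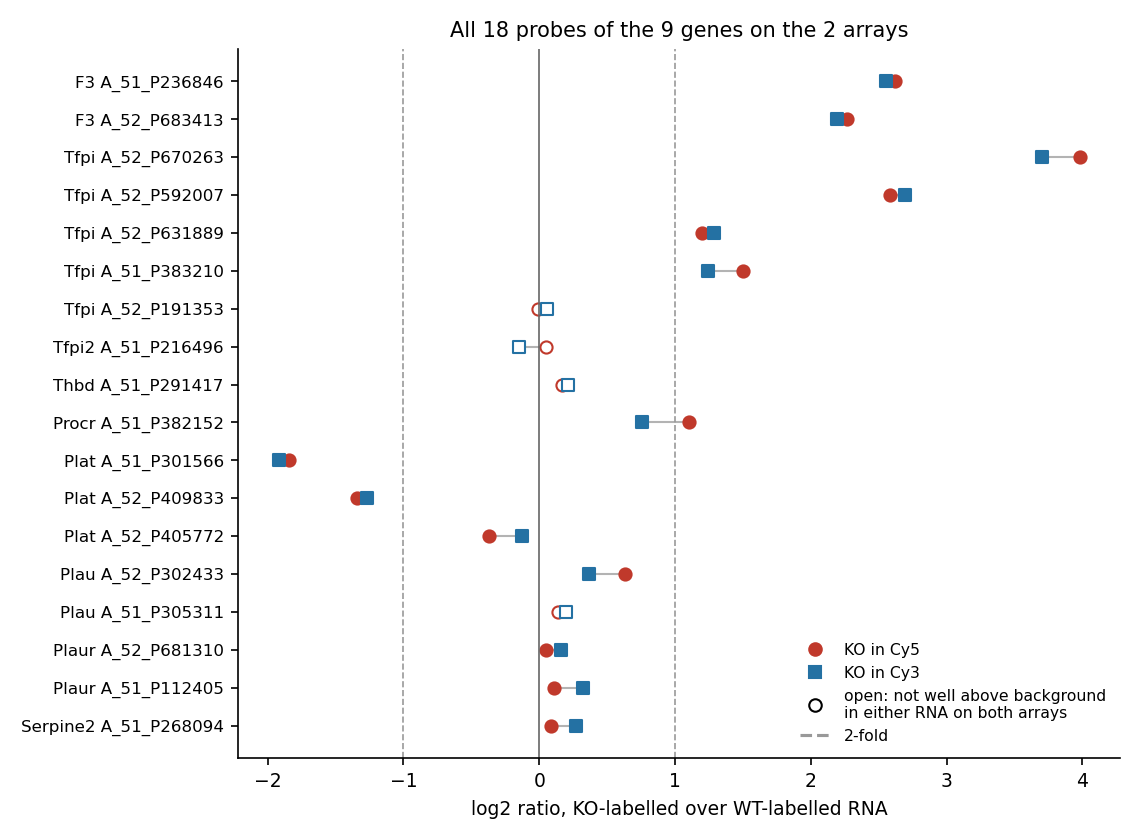
Log2 ratio of the KO-labelled RNA over the WT-labelled RNA (x axis) for each of the 18 probes (y axis), with circles for the array with KO in Cy5, squares for the array with KO in Cy3, open symbols for probes not well above background and dashed lines at 2-fold. The 2 F3 probes and 4 of the 5 Tfpi probes lie beyond 2-fold to the right on both arrays, 2 of the 3 Plat probes lie beyond 2-fold to the left, and both arrays of a probe are never more than 0.34 apart.

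The stretches upstream of 4 genes are shown next because they place the 2 genes with the highest ratios (F3 and Tfpi) beside Procr, which lay near the threshold, and Plaur, whose ratio was close to 1. Each is the 250 bases before a RefSeq transcript start on the GRCm38.p6 build, read in the direction of the gene, and capitals mark matches to any of 5 short motifs on either strand. The motifs were the TEAD core GGAATG (TEAD factors are the DNA-binding partners of YAP and TAZ), the AP-1 motif TGANTCA, the Sp1 box GGGCGG, the NF-kB motif (GGGA, any 4 bases, CC) and the TATA box TATAAA. The F3 stretch lies at chr3:121723287-121723536 on the plus strand, the Tfpi stretch at chr2:84476760-84477009 on the minus strand, the Procr stretch at chr2:155750967-155751216 on the plus strand and the Plaur stretch at chr7:24462233-24462482 on the plus strand.
F3: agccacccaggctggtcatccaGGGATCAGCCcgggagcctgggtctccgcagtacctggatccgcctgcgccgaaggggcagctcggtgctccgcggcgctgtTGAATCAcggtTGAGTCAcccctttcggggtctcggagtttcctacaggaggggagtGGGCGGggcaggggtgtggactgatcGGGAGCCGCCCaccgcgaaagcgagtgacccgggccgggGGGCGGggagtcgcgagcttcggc
Tfpi: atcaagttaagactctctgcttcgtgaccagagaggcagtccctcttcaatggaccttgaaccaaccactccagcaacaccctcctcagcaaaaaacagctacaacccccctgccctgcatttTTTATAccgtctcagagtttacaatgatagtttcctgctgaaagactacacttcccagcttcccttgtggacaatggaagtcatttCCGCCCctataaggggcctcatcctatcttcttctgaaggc
Procr: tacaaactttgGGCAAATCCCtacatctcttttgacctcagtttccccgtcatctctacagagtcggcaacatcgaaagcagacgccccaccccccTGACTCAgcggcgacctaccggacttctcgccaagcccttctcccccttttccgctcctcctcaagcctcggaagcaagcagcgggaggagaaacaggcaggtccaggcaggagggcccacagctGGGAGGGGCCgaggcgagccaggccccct
Plaur: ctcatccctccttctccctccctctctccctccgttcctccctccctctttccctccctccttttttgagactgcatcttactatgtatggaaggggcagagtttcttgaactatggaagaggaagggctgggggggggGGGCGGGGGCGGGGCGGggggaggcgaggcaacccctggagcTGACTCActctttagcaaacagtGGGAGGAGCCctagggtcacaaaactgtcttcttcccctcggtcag

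The F3 stretch held 2 AP-1 matches, at 146 to 140 and at 135 to 129 bases before the start, besides 3 Sp1 boxes and 2 NF-kB matches, of which 1 Sp1 box overlapped an NF-kB match. Procr and Plaur held 1 AP-1 match each, at 154 to 148 and at 69 to 63 bases before the start. A window of the undetected Tfpi2, not printed, also held an AP-1 match, at 77 to 71 bases before the start, and the Serpine2 window held none. The Tfpi stretch held no AP-1 match, 1 Sp1 box and 1 TATA box, both on the opposite strand. Its GC content of 48.4% was below that of F3 at 70.0%, Procr at 61.6% and Plaur at 59.6%, with a median of 52.4% over all windows. Tfpi has a second start in the table, whose stretch at chr2:84474175-84474424 on the minus strand is not printed. It had a GC content of 52.8%, 1 Sp1 box and no match to the other 4 motifs. No TEAD core was matched in any of the 9 windows of the 6 genes present in the table. Plat, Plau and Thbd had no window, so the gene called lower could not be set beside the others. Across all 32851 windows, 12.6% held the TEAD core, 6.75% the AP-1 motif, 32.7% the Sp1 box, 17.6% the NF-kB motif and 12.4% the TATA box. The matches are matches of letters only, and binding of any factor was not tested.

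F3 was measured by 2 overlapping probes at chr3:121726440-121726499 and chr3:121726400-121726459 (NCBI36, mm8, the build of all probe positions). Signals of the RNAs are set side by side within a dye, since Cy5 was read brighter than Cy3 on both arrays. Such a pair comes from different arrays, without background subtraction or scaling between them, and the ratios rest on the normalised values. In Cy5 the first probe gave 12748 units in the KO-labelled RNA and 2216 in the WT-labelled RNA, and in Cy3 it gave 5197 and 777. The KO-labelled RNA was thus the brighter one in either dye. The log2 ratios were 2.62 and 2.55 on the arrays with KO in Cy5 and in Cy3, with a mean of 2.58. The second probe, which shares part of its sequence with the first, gave 2.27 and 2.19 (4.68-fold). Among the 12777 detected genes F3 ranked 62nd from the highest ratio.

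Tfpi, the inhibitor of the tissue factor complex, had a higher ratio than F3 by the brightest probe of each and ranked 12th. Averaged over all probes of a gene, dim ones included, the order was reversed, with log2 ratios of 1.82 for Tfpi and 2.40 for F3. The brightest Tfpi probe, at chr2:84241704-84241763, gave 7773 units in the KO-labelled RNA and 530 in the WT-labelled RNA in Cy5, and 2957 and 187 in Cy3. The log2 ratios were 3.98 and 3.70 with a mean of 3.84, and the gap of 0.28 between the arrays was small beside the ratio. A second probe at chr2:84254644-84254703 gave 775 against 76 units in Cy5 and 316 against 47 in Cy3, a mean log2 ratio of 2.64, with the WT-labelled RNA above background on 1 of 2 arrays.

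A pair of dimmer Tfpi probes stood above background in the KO-labelled RNA alone, so their folds are lower bounds. The probe at chr2:84274542-84274601 gave a ratio of at least 2.37-fold (200 against 53 units in Cy5 and 101 against 41 in Cy3). The probe at chr2:84243800-84243859, which the files describe as the beta form of the transcript, gave at least 2.39-fold (195 against 40 units in Cy5 and 85 against 31 in Cy3). The fifth probe, at chr2:84239540-84239599, belongs to a clone that the files describe as unclassifiable. It was undetected in both, with 44 against 41 units in Cy5. All 4 Tfpi probes above background were therefore called higher, although the 5 probes were not counted as replicates. They were designed to different sequence records, except that the probes at chr2:84254644-84254703 and chr2:84274542-84274601 share a record.

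The fold of the dimmer Tfpi probes depended on the treatment of the background. With the main setting, which adds an offset of 50 units before the logarithm, the 4 called probes gave mean log2 ratios of 3.84, 2.64, 1.25 and 1.37. With an offset of 10 the same probes gave 4.05, 3.54, 2.17 and 2.79, and the ratio of the scanner software, which is built without this offset, gave 4.15, 5.06, 4.75 and 5.22. The spread between probes thus narrowed under the last of these, and the brightest probe moved least. For the dimmer probes that ratio rests on a WT-labelled signal at or near background, so the narrowing sets no fold for them. No direction changed among the 4.

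**Figure D2:**
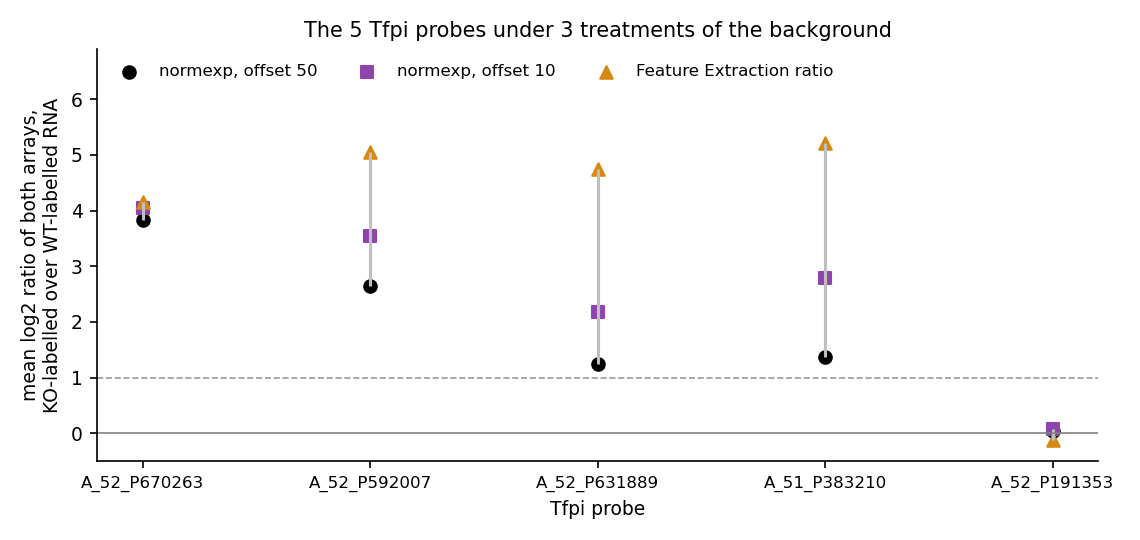
Mean log2 ratio of the KO-labelled RNA over the WT-labelled RNA (y axis) of the 5 Tfpi probes (x axis) with a background offset of 50 (circles), an offset of 10 (squares) and the scanner software's own ratio (triangles). The brightest probe, at the left, moves between 3.84 and 4.15, the next 3 move upwards by more than 2 units, and the probe at background stays near 0.

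The other Kunitz-type inhibitor, Tfpi2, was not detected. Its probe at chr6:3915439-3915498 gave 40 against 42 units in Cy5 and 37 against 39 in Cy3 in the KO-labelled and WT-labelled RNA, with neither above background. The log2 ratios of 0.05 and -0.15 had opposite signs, so no level and no direction can be given for Tfpi2.

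The receptors of the protein C pathway differed from each other in detection. Procr, at chr2:155446650-155446709, gave 1468 units in the KO-labelled RNA and 761 in the WT-labelled RNA in Cy5, and 552 and 287 in Cy3. Both dyes thus had the KO-labelled RNA as the brighter one. The log2 ratios of 1.10 and 0.76 lay on either side of the 2-fold threshold, and their gap of 0.34 was the widest among the 18 probes, so Procr was not called. It ranked 536th of the 12777 genes. Thbd, whose product binds thrombin, was undetected in both RNAs at chr2:148095940-148095999. Its signals were 52 against 45 units in Cy5 and 42 against 38 in Cy3.

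Plat, the tissue-type activator, was the only one of the 9 genes called lower, and it ranked 77th from the lowest ratio. Its brightest probe at chr8:24248165-24248225 gave 1095 units in the KO-labelled RNA and 4066 in the WT-labelled RNA in Cy5, and 422 and 1615 in Cy3. The log2 ratios were -1.84 and -1.92 with a mean of -1.88, which is 3.69-fold higher in the WT-labelled RNA. A second probe at chr8:24247604-24247663 gave 292 against 805 units in Cy5 and 130 against 357 in Cy3, with log2 ratios of -1.34 and -1.27, and was also called lower. The third probe, designed to a separate clone at chr8:24241374-24241433, stood above background in the WT-labelled RNA alone and gave a bound of at least 1.19-fold there. It was not called, and its signals of 56 against 77 units in Cy5 lay near the detection limit.

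**Figure D3:**
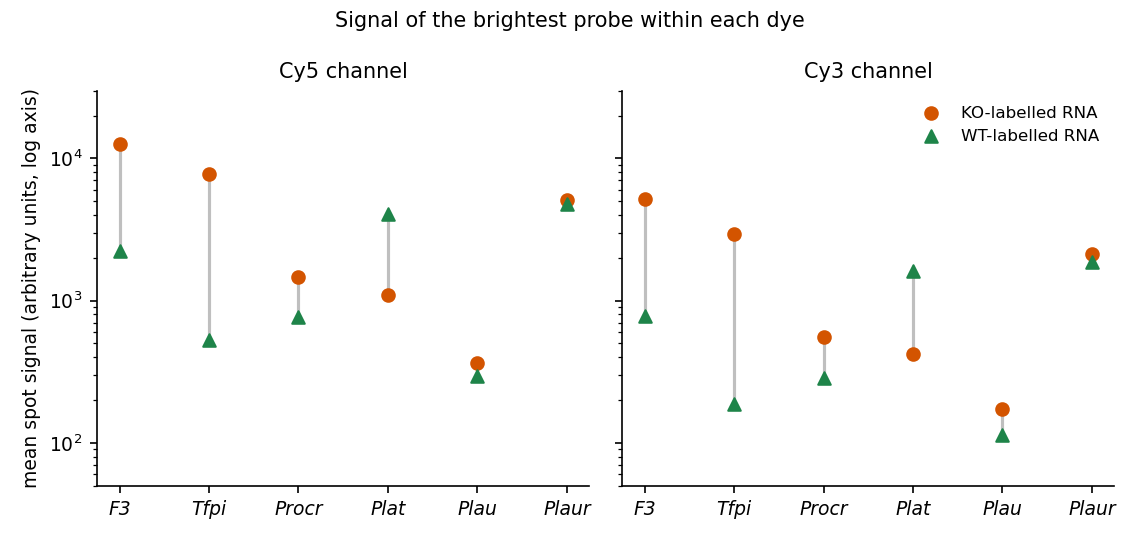
Mean spot signal in arbitrary units (y axis, log scale) of the brightest probe of the 6 genes detected in both RNAs (x axis), with Cy5 on the left, Cy3 on the right, circles for the KO-labelled RNA and triangles for the WT-labelled RNA. In both dyes the circle lies far above the triangle for F3 and Tfpi and below it for Plat (1095 against 4066 units in Cy5), while the Plaur symbols nearly coincide (5101 against 4779 in Cy5), and a line joins the values of 1 gene in 1 dye.

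The other activator did not follow Plat. Plau, the urokinase-type activator, gave 365 units in the KO-labelled RNA and 293 in the WT-labelled RNA in Cy5, and 174 and 114 in Cy3, at chr14:19631572-19631631. Its log2 ratios of 0.63 and 0.37 were both positive and below the threshold with loess, with a mean of 0.50. The difference in log2 ratio between Plat and Plau was larger than the gap between the arrays for either gene, which was 0.08 for Plat and 0.26 for Plau. The second Plau probe, whose ends the files place 367 bases apart at chr14:19629185-19629551, was above background on only 1 array and only in the KO-labelled RNA. Its mean log2 ratio was 0.17 in the main setting. With the scanner software's ratio it was 2.25 (2.50 and 2.01 on the arrays with KO in Cy5 and in Cy3). No fold can be set from this probe.

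Plaur, the receptor that binds Plau, was bright in both RNAs and nearly equal between them. Its brighter probe at chr7:24184310-24184369 gave 5101 against 4779 units in Cy5 and 2118 against 1870 in Cy3, with log2 ratios of 0.05 and 0.16. The other probe at chr7:24183056-24183115 gave 1800 against 1582 units and 807 against 675, with log2 ratios of 0.11 and 0.32. The mean log2 ratios were 0.10 (1.07-fold) and 0.22 (1.16-fold), beside an SD of 0.0943 for a mean of both arrays, and neither probe was called.

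Serpine2, the protease inhibitor, was close to background. Its probe, whose ends lie 2618 bases apart at chr1:79675925-79678542, gave 63 against 52 units in Cy5 and 47 against 45 in Cy3. The flag was set for the KO-labelled RNA on both arrays and for the WT-labelled RNA on neither, which bounds the fold at 1.13 or more. A further probe at chr1:79736659-79736718, named by a clone but described as Serpine2 in the files and picked after its values were seen, was above background in neither RNA, with a mean log2 ratio of 0.06. The low signals were those of these probes, and no level of the transcript can be set from them.

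Beyond the 9, values are given for 44 other genes of the coagulation and plasminogen systems. Of the 44, 21 were detected, 2 were called higher and 0 lower, which is 4.55% of those measured and 9.52% of those detected. The backgrounds were 4.06% of all genes measured and 6.21% of those detected, and the list's median log2 ratio was 0.02 against 0.00 over all genes. The difference between the 9 genes and these 44 was not tested, since the 9 were chosen with results known.

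The downstream proteases of the cascade were largely undetected. Of 18 coagulation factors and their processing enzymes 5 were detected and none was called, among them the tissue factor ligand F7 at -0.30, the cofactor F8 at 0.35 (called higher with the scanner software's ratio), and Vkorc1 and Ggcx, which serve vitamin K-dependent carboxylation, at -0.51 and -0.29. Of 7 other coagulation inhibitors 4 were detected and none was called, with the protein S gene Pros1 at 0.00 and the protein C gene Proc at -0.02. Proc was above background in the KO-labelled RNA alone, and F8 in the WT-labelled RNA on only 1 array. The signals of Proc, F7 and F8 were low, so their ratios do not set a level. Plg, the plasminogen gene, was undetected in both RNAs, so no level can be given for the substrate of Plat and Plau.

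Of the 4 protease-activated receptors, which thrombin and related proteases cleave to signal into the cell, F2r alone was detected and it was called higher. F2r encodes the thrombin receptor PAR1 and gave 53190 against 23301 units in Cy5 and 18567 against 6219 in Cy3 in the KO-labelled and WT-labelled RNA. Its log2 ratios were 1.50 and 1.06 with a mean of 1.28 (2.42-fold). F2rl1, F2rl2 and F2rl3 had mean log2 ratios of 0.18, 0.09 and -0.11 and were not well above background on both arrays.

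Of 6 other genes of the plasminogen system reported here 2 were detected and none was called. The plasmin-opposing carboxypeptidase Cpb2 had log2 ratios of -0.78 and -0.94 by its brightest of 3 probes and was called lower with the scanner software's ratio. The means of its 3 probes ranged from -0.86 to 0.00. With median centring of the arrays in place of loess, the ratios of F2r became 2.61 and 0.18, so it was then not called. Under the same setting F3 gave 3.52 and 1.73, Tfpi 4.78 and 2.93 and Plat -1.03 and -2.70, all still past the threshold on both arrays. The arrays lay farther apart without loess, with Procr at 1.81 and 0.05, Plau at 1.08 and -0.16 and Plaur at 0.95 and -0.66, so that the signs of Plau and Plaur then differed between the arrays.

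The 9 genes for binding or clearance of plasminogen and urokinase were all detected, and 1 of them was called. Lrp2, the endocytic receptor megalin, gave 929 against 118 units in Cy5 and 343 against 60 in Cy3, with log2 ratios of 2.50 and 2.38. Its 4 probes ranged from 0.01 to 2.44. The related clearance receptor Lrp1 had a mean log2 ratio of 0.10. The plasminogen receptors Anxa2, S100a10 and Plgrkt (under an older clone name on the array) had 0.11, 0.11 and 0.07. Mrc2, a collagen receptor that associates with Plaur, gave 0.41 on both arrays, while another of its probes lay at -0.84.

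**Figure D4:**
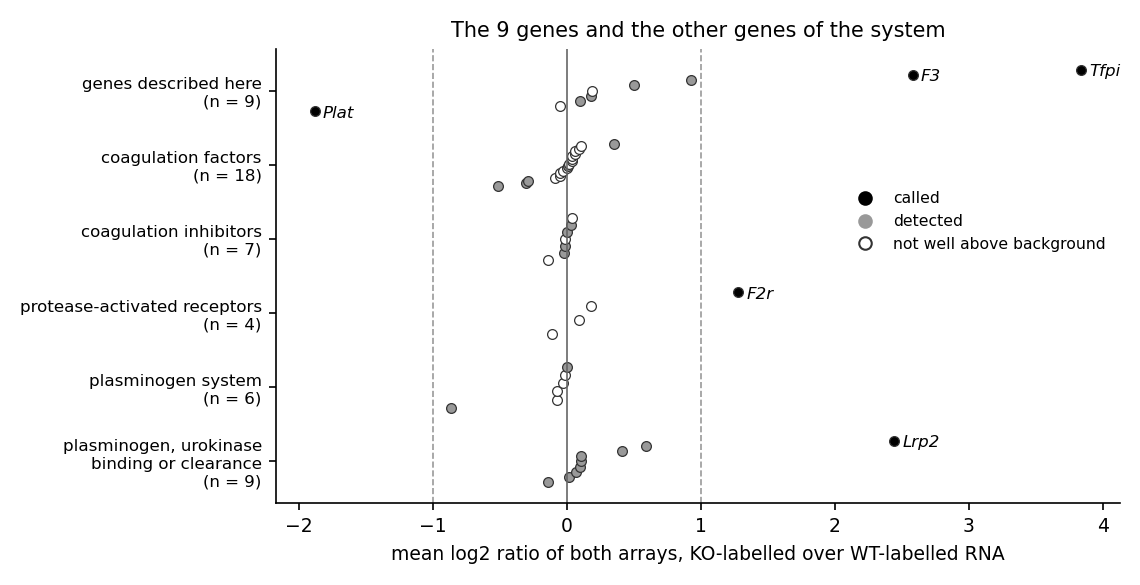
Mean log2 ratio of both arrays, KO-labelled RNA over WT-labelled RNA (x axis), of the 9 genes and of the 5 lists of other coagulation and plasminogen genes (y axis, with the number measured), each point a gene, filled black where called, grey where detected and open where not well above background. Tfpi, F3, Lrp2 and F2r lie to the right of the 2-fold line at 1 and Plat alone lies to the left of -1.

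Marker genes were measured as a check of the labelled cell type. All 11 measured fibroblast markers were detected and none was called, with a median log2 ratio of -0.41 and summed signals of 74600 to 221000 units in the KO-labelled RNA and 81300 to 253000 in the WT-labelled RNA over the dyes. Single markers shifted in both directions. Fbn1 had log2 ratios of -0.72 and -1.66, Fn1 had a mean of 0.89, and Vim had a mean of -0.89 by a dim probe. Thbd and Procr are well known from endothelium, and of 10 endothelial markers 2 were detected and none called, with summed signals of 437 to 604 units and 443 to 602. Pecam1, Cdh5, Kdr, Tie1, Emcn and Cldn5 were not well above background. Of 5 smooth muscle markers all were detected and Cnn1 was called lower, at a log2 ratio of -2.11, with sums of 30500 to 84600 and 23900 to 65400. The median log2 ratio of this list was -0.46. The sums came mostly from Acta2 and Tagln, at 0.79 and 0.13, while Myh11 and Smtn lay at -0.46 and -0.53. The 5 Acta2 probes ranged from -0.64 to 0.93.

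Blood cell markers moved in single genes. Of 8 macrophage markers 4 were detected, Lyz2 at 1.10 (its other probe lay at 0.13) was called higher and Cd14 at -1.05 lower, with sums of 1160 to 2520 and 873 to 1750, while Ptprc was not well above background. Of 5 megakaryocyte and platelet markers 3 were detected, and Ppbp was called higher (at least 2.39-fold), with sums of 382 to 665 and 284 to 480 and with Pf4 and Gp9 not well above background. None of 4 hepatocyte markers was detected, and of 6 epithelial markers 2 were detected and none called. The part of these markers in the ratios of F3, Tfpi and Plat was not tested.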

How the data were processed

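Per the labels and file headers, 2 arrays were read with Agilent Feature Extraction 10.5.1.1, and the authors deposited mean signal and median local background per spot as intensity in arbitrary units, well-above-background, saturation and outlier flags, and a log10 ratio of Cy5 over Cy3. A second file that the authors deposited holds log2 ratios, which matched the log2 of Feature Extraction's ratio turned to KO over WT (slopes 0.9999 and 0.9998). Each array held 45018 spots, of which 1639 were controls, with 390 and 378 flagged outliers and 0 saturated spots. Median signals were 96.8 and 98.5 units in Cy5 and 60.1 and 58.2 in Cy3. The number of arrays limits the precision.

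Local background was treated by normexp with an offset of 50 (limma 3.58.1, R 4.3.3), and ratios were normalised by loess within each array. Control and outlier spots were left out, spots of a probe were averaged and the second array was turned, which left 40875 of 41174 probes with a value on both arrays. A probe spotted repeatedly needed the flag in a share of at least 0.5 of its spots. Bounds used channel values after loess and Aquantile, as the brighter level against the higher of the lowest signal above background and the dim probe's own. Genes were names matching a RefSeq symbol or synonym. All 9 genes are named with every probe. List genes that were called and 10 chosen list genes are named by their brightest probe, and F7, F8, Vkorc1, Ggcx, Pros1, Proc and Cpb2 were picked after their values were seen. Of the lists, 1 gene is not reported here and is left out of the list counts. The members and lists were chosen with earlier results of these data known. Calling was tested on simulated data for the KO over WT comparison. Of 200 changed among 40875 simulated probes, 92% were recovered, false calls numbered 0, and the median ratio of estimated to true change was 0.884. These values belong to the simulated probes, and whether they hold for the measured probes was not tested. Promoter windows are from a RefSeq table of 27025 genes, of which 6 of the 9 genes matched, and the 50 bases after the start were left out. Python 3.11.15, pandas 2.3.3, numpy 2.4.6 and matplotlib 3.10.9 were used. The alternatives were no background subtraction, an offset of 10, median centring, Feature Extraction's ratio, the deposited log2 table, flagged spots kept, each array alone, the mean over probes, other detection filters, limma on the turned arrays and the methods' t-test.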

Additional observations from a re-analysis of the deposited data

How the results depend on the processing

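F3, Tfpi and Plat were called, in the directions given, under every alternative except the methods' t-test after Benjamini-Hochberg adjustment, which called 0 of the 9 genes higher and 0 lower, 0 of the 44 other genes, and 0 and 0 over all genes. Before adjustment that test, at p under 0.05 with 1 residual degree of freedom, called 377 genes higher and 315 lower. With limma on the turned arrays, at an adjusted p under 0.05, 474 and 428 were called, against 431 and 363 in the report. All of these tests also required a mean log2 ratio of at least 1 in size, and none used the detection flag. The study's methods name a t-test for knockout MEFs without Benjamini-Hochberg adjustment, which was added here. Both forms were run on the 2 arrays described here alone. Tests on the arrays compare the RNAs hybridised, not the genotypes. With a single array, the members called higher ranged from 2 to 3 and those called lower from 1 to 1, Procr being added on the array with KO in Cy5 alone (without the array with KO in Cy3). The median log2 ratio of the members then ranged from 0.17 to 0.27, all genes called higher from 477 to 511 and lower from 409 to 465, and the 44 other genes from 2 to 2 higher and 0 to 0 lower. The median log2 ratio of the 9 members, 0.19 in the report, was 0.48 with an offset of 10 and 1.02 with the ratio of Feature Extraction and with the deposited log2 values. Over the 44 other genes, median centring and the unadjusted t-test each called 1 higher (Lrp2), while Feature Extraction's ratio and the deposited log2 values each called 1 lower (Cpb2) and 3 higher, F8 being added. Over all genes, median centring called 227 higher and 116 lower, Feature Extraction's ratio 811 and 667, and the deposited log2 values gave 814 and 669. The cause was not tested.

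Of 81 recomputed log2 ratios of single members, 62 moved by less than the SD between arrays, 13 became larger and 6 smaller, and 2 (both Tfpi2, at background) took the opposite sign. Tfpi ranged from 1.82 to 4.15, F3 from 2.40 to 2.66, Plat from -2.00 to -1.14, Procr from 0.76 to 1.10, Serpine2 from 0.09 to 1.16 and Thbd from 0.17 to 1.39, the last 2 near background, where the signal limits any ratio. No paired analysis was possible because only 1 replicate per genotype was named.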
